A study of Drosophila melanogaster with 4 samples.

Results

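The genes described here are 10 genes grouped as nucleolar genes of ribosome biogenesis: Fib, Nop60B, Nopp140, Ns1, Ns2, Ns3, Tif-IA, pit, Non1 and Nlp. They were chosen by name from the 17475 genes of the deposited expression table, and where their proteins lie was not measured. Each name matched 1 row. Expression was measured by RNA sequencing in ovaries of 7-day-old Drosophila melanogaster kept at 25 °C, with 2 control libraries and 2 libraries from flies that carry the wuho mutation wh7. wuho encodes a WD-repeat subunit of a tRNA methyltransferase. Both groups are given the strain background w1118, and the genotype is given as wild type for controls and wh7 for mutants. The description fields instead name UAS-tkvRNAi/+ for the control samples and c587>tkvRNAi for the wh7 samples, where c587 is a Gal4 driver of somatic cells in the germarium and tkv encodes a BMP receptor. Levels are given as FPKM, the number of fragments scaled by transcript length and by the size of the library. Levels of wuho were 24.7 and 25.4 FPKM for controls and 0.832 and 0.646 FPKM for mutants. In the wh7 libraries wuho fell to 2.95% of its control mean (limma adjusted p = 0.00245). The gene tkv was singled out after its values were seen. It was at 48.0 and 49.5 FPKM for controls and 57.0 and 55.7 FPKM for mutants, and was not called (limma adjusted p = 0.0898). A knockdown limited to somatic cells of the germarium may not show in whole-ovary RNA, so tkv levels cannot decide between the labels. The groups were taken from the source names, which the genotype fields match. No source says that each library came from its own group of flies, so p-values reflect only how far these samples vary, and that variation may be technical.

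The nucleolus is where RNA polymerase I copies the ribosomal DNA, where small nucleolar ribonucleoproteins (snoRNPs) modify the new rRNA, and where assembly factors build the 2 ribosomal subunits before export. In the fly ovary the nurse cells, which are polyploid germline cells, make most of the ribosomes that the oocyte inherits, and germline stem cells are known for large nucleoli. Tif-IA encodes the initiation factor that recruits RNA polymerase I. Fib encodes fibrillarin, the methyltransferase of box C/D snoRNPs, and Nop60B encodes the pseudouridine synthase of box H/ACA snoRNPs. Nopp140 is a chaperone of both kinds of snoRNP. Ns1, Ns2 and Ns3 are nucleostemin-family GTPases, Non1 is a GTPase of large subunit assembly, and pit is a DEAD-box RNA helicase that is a known target of Myc in flies. Nlp is a nucleoplasmin, a histone chaperone that in flies also links centromeres to the nucleolus.

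All 10 genes were well expressed in both genotypes, from 41.7 FPKM for Ns3 in wh7 1 to 817 FPKM for Nlp in wh7 2, and none was at the floor that stands for 0. Their mean levels lay between the 69.1st and the 98.3rd percentile of the 8580 genes tested, which are those that reach 1 FPKM in 2 or more libraries. Each gene would have passed that filter in either genotype alone. Reads were estimated from the longest annotated transcript of each gene and the FPKM step of a single read. The genes rested on roughly 1700 reads (Ns3) to 17900 reads (Nop60B) in the library where each was lowest. Counting error at that depth is about 0.75% to 2.4%, and it covers counting only. Shorter transcripts would mean fewer reads and a larger error, and those of Nop60B run from 971 to 3412 nt.

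2 of the 10 genes changed, in opposite directions. Nop60B fell in wh7 and Non1 rose, while the other 8 did not pass limma's moderated test on log2(FPKM + 1) with Benjamini-Hochberg adjustment over all tested genes at 0.05. Across all tested genes 39.7% passed, 21.2% as higher and 18.4% as lower, and the 20.0% called among the 10 genes was not tested against that share. With limma's unadjusted p under 0.05 there were 5 of the 10, which adds Ns2, Ns3 and Tif-IA. The share of all tested genes at that unadjusted threshold was not determined. It cannot be smaller than the 39.7% that passed after adjustment, so the 5 are no sign of an excess. The median change of the 10 genes was -0.096 on the log2(FPKM + 1) scale, beside -0.041 for all tested genes, and the median size of the change in either direction was 0.29 beside 0.35. Among the 2649 tested genes at or above the level of the lowest of the 10, the median size was 0.25 and 34.1% were called. The libraries of the 2 genotypes did not overlap for 7 of the 10 genes (3 higher and 4 lower), where 77.0% of all tested genes show no overlap. The authors' deposited table marks 0 of the 10 as significant. It does not mark wuho either (q of 0.302), although wuho fell to 2.95% of its control mean. With 2 libraries a group, an adjusted p rests on the spread that limma pools across genes. In bulk ovary RNA, fewer cells of a type and less RNA per cell cannot be told apart.

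**Figure D1:**
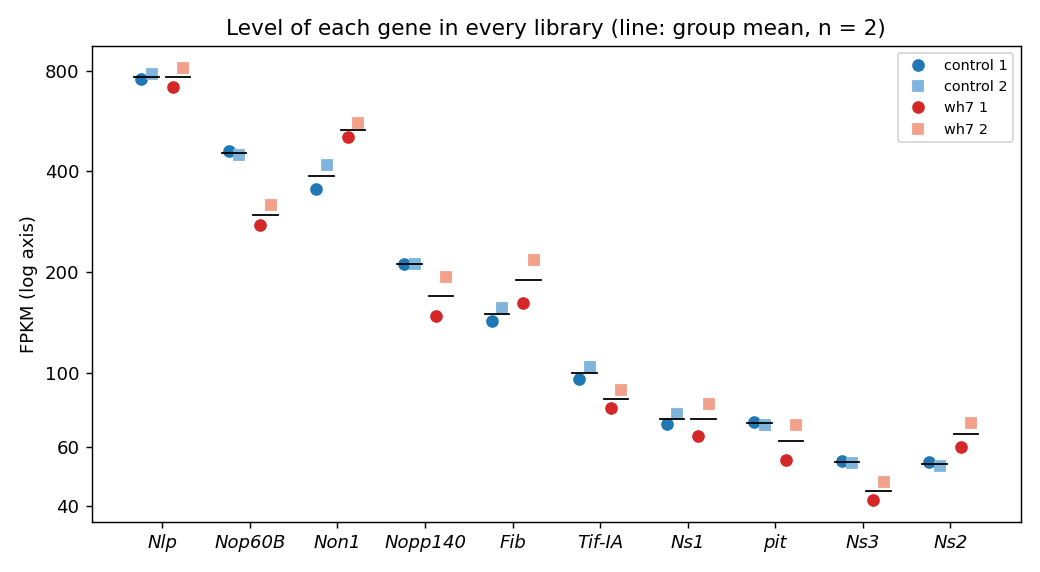
FPKM (log axis) of the 10 genes in each of the 4 libraries, ordered by control mean, with points for libraries and a line for each group mean (n = 2). The wh7 points of Nop60B lie below both controls, those of Non1 lie above both controls, and wh7 1 lies below wh7 2 for every gene.

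**Figure D2:**
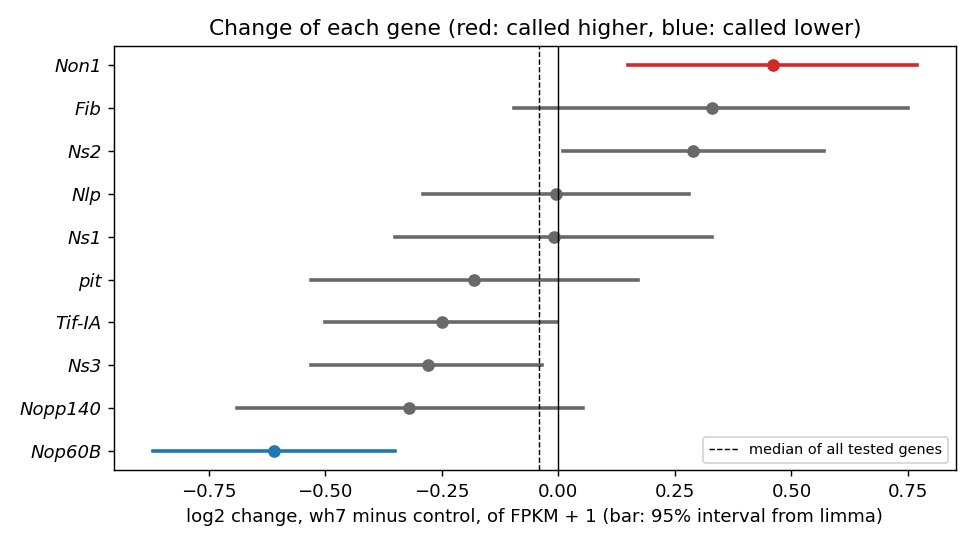
Change of each gene on the log2(FPKM + 1) scale, wh7 minus control, with bars for the 95% interval from limma and a dashed line at the median of all tested genes (-0.041). Nop60B (-0.61) is called lower and Non1 (0.46) is called higher; the intervals of Fib, Nlp, Ns1, pit and Nopp140 include 0.

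Transcription of the ribosomal DNA is represented by Tif-IA (FBgn0032988; BDGP6 chromosome 2L, 22249876 to 22258260, plus strand, 1 annotated transcript of 2140 nt). It measured 96.0 and 104 FPKM in control ovaries and 78.8 and 88.8 FPKM in wh7 ovaries. The 4 values do not overlap between genotypes, with every wh7 library below both controls. The change was -0.25 ± 0.095 (SE) on the log2 scale, with a 95% interval of -0.50 to -0.0028, and it missed the threshold (limma adjusted p = 0.0929). Among the 14 alternative fits the replicate block called it lower (limma adjusted p = 0.0495).

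The 2 rRNA-modifying enzymes differed in opposite directions, and only that of Nop60B was called. Nop60B (FBgn0259937; chromosome 2R, 24174877 to 24186343, plus strand) measured 459 and 448 FPKM in control ovaries and 277 and 317 FPKM in wh7 ovaries. Both wh7 libraries lay far below both controls, a 1.53-fold fall from 453 ± 7.92 to 297 ± 28.7 FPKM (SD, n = 2). The change was -0.61 ± 0.098 (SE; 95% interval -0.87 to -0.35; limma adjusted p = 0.0141), while the authors' deposited table gives a q of 0.0849. The call was lost without control 1 (limma adjusted p = 0.0714) and held in the other 13 of 14 alternative fits, with changes from -0.71 to -0.50. Of all tested genes, 71.0% changed by less than Nop60B in either direction.

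Fib (FBgn0003062; chromosome 2R, 23072909 to 23074725, minus strand, 1 transcript of 1318 nt) measured 143 and 156 FPKM in control ovaries and 162 and 218 FPKM in wh7 ovaries. Both wh7 values were above both controls, but the wh7 libraries stood farther from each other than wh7 1 stood from control 2. The change of 0.33 ± 0.160 (SE; 95% interval -0.0954 to 0.75) was not called (limma adjusted p = 0.165). Without wh7 1 the change was 0.54 and passed (limma adjusted p = 0.0232). Within a library, the level of Fib divided by that of Nop60B was 0.312 and 0.349 in the controls and 0.583 and 0.686 in wh7. These ratios, which no scaling of a whole library can alter, did not overlap, and 77.0% of single tested genes do not overlap either. The pair was set together for its roles with earlier results known, and the ratio was not tested.

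Nopp140 (FBgn0037137; chromosome 3L, 21832774 to 21836685, plus strand) was at 211 FPKM in both controls and at 148 and 193 FPKM in wh7. Every wh7 value was lower, and the wh7 libraries were spread more widely than the controls. The change was -0.32 ± 0.141 (SE; 95% interval -0.69 to 0.053) and was not called (limma adjusted p = 0.134). Without wh7 2 it was -0.51 and passed (limma adjusted p = 0.0378). The deposited locus of Nopp140 runs on to 21841356 because it is merged with P5CDh1, a gene on the other strand that shares 21 exon bases with it and stood at 68.7, 78.3, 99.7 and 90.0 FPKM across control 1, control 2, wh7 1 and wh7 2.

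The partners of these enzymes allow a comparison within each particle. Of all tested genes 21.2% rose and 18.4% fell. Of the other 6 genes in the list of snoRNP core proteins and their chaperone, 0 rose, 1 fell and 5 were not called. Their median change was 0.058. Without wh7 1 the balance was the opposite, with NHP2 and CG4038 called higher and 0 genes called lower. The fallen gene was hoip, which encodes a core protein of box C/D snoRNPs that also serves in the spliceosome. It measured 364 and 401 FPKM in control ovaries and 277 and 313 FPKM in wh7 ovaries (limma adjusted p = 0.0439), with the call lost whichever library was left out (limma adjusted p = 0.072 to 0.148). The other C/D proteins were not called, with differences of 0.011 for nop5 and -0.17 for Nop56 (limma adjusted p = 0.954 and 0.565). Nop60B fell while none of its 3 H/ACA partners was called, and the difference between them was not tested. CG4038, the fly Gar1, measured 110 and 116 FPKM in control ovaries and 132 and 173 FPKM in wh7 ovaries, a change of 0.42 that was not called (limma adjusted p = 0.0777). The differences for NHP2 and for CG7637, the fly Nop10, were 0.25 and 0.11 (limma adjusted p = 0.445 and 0.766). The ratio of CG4038 to Nop60B within a library was 0.240 and 0.258 in controls and 0.476 and 0.545 in wh7, and that of NHP2 to Nop60B was 0.216 and 0.275 against 0.378 and 0.517.

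**Figure D3:**
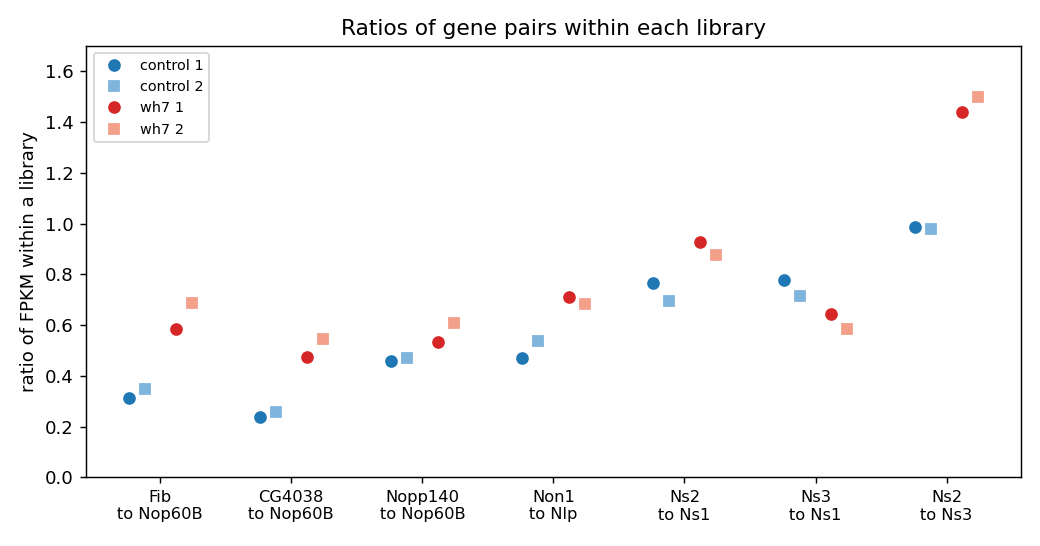
Ratio of the FPKM of 2 genes within each library, on a linear axis from 0, for 7 pairs, with blue shades for controls and red shades for wh7. The Fib to Nop60B ratio is 0.312 and 0.349 in controls and 0.583 and 0.686 in wh7. No pair shown overlaps between genotypes, and 77.0% of single tested genes do not overlap either. The share over all gene pairs was not determined.

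Nop60B is a host gene of snoRNAs. The annotation places 7 of them inside it on its own strand, and 6 of these lie wholly within exon bases of at least 1 of its 5 annotated transcripts, which are 971 to 3412 nt long. Of the 7, snoRNA:Psi18S-1820, which lies in an intron, was at 15.3, 15.8, 15.1 and 10.4 FPKM across control 1, control 2, wh7 1 and wh7 2. snoRNA:Me28S-G1083a was at 20.9 FPKM in control 1 and listed at 0 elsewhere, and the other 5 were listed at 0 in all libraries. FPKM of such short RNAs are uncertain, and the sources used here do not say how reads were divided between host and snoRNA.

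The 3 nucleostemin-family genes did not move as a group. Ns1 (FBgn0038473; chromosome 3R, 17070523 to 17072675, minus strand), the counterpart of nucleostemin itself, measured 70.3 and 75.5 FPKM in control ovaries and 64.8 and 80.9 FPKM in wh7 ovaries. The wh7 values lay on either side of both controls, the change was -0.009 ± 0.128 (SE), and the 95% interval ran from -0.35 to 0.33 (limma adjusted p = 0.963). Its direction was reversed under quantile normalization (0.080) and median ratio scaling (0.096), and without control 2 (0.041) or wh7 1 (0.148).

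Ns2 (FBgn0034243; chromosome 2R, 17565779 to 17568456, minus strand) measured 54.0 and 52.6 FPKM in control ovaries and 60.1 and 70.9 FPKM in wh7 ovaries. Both wh7 values were higher, with a change of 0.29 ± 0.106 (SE; 95% interval 0.0093 to 0.57) that missed the threshold (limma adjusted p = 0.0886). It passed under median ratio scaling (limma adjusted p = 0.0475) and without wh7 1 (0.0429). Its deposited locus starts at 17563606 and takes in CG14480 on the other strand, which shares 74 exon bases with Ns2 and was at 57.0, 56.3, 54.0 and 56.1 FPKM across control 1, control 2, wh7 1 and wh7 2.

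Ns3 (FBgn0266284; chromosome X, 1461844 to 1464220, minus strand) measured 54.7 and 53.9 FPKM in control ovaries and 41.7 and 47.2 FPKM in wh7 ovaries. Both wh7 values were lower, and the change of -0.28 ± 0.095 (SE; 95% interval -0.53 to -0.0347) missed the threshold (limma adjusted p = 0.0707) and was called in 0 of 14 alternative fits. In the controls Ns2 and Ns3 stood at nearly equal levels per length. The ratio of Ns2 to Ns3 within a library was 0.987 and 0.977 in controls and 1.44 and 1.5 in wh7. This pair was singled out after its values were seen, and the ratio was not tested.

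Non1 (FBgn0028473; chromosome 2R, 9396265 to 9398734, minus strand), the other GTPase of large subunit assembly, measured 354 and 419 FPKM in control ovaries and 508 and 558 FPKM in wh7 ovaries. Both wh7 libraries were above both controls, a 1.38-fold rise from 387 ± 45.9 to 533 ± 35.3 FPKM (SD, n = 2). The change was 0.46 ± 0.118 (SE; 95% interval 0.15 to 0.77; limma adjusted p = 0.0376), and the authors' deposited table gives a q of 0.310. The call is less firm than that of Nop60B, since it held in 8 of 14 alternative fits, where limma adjusted p ranged from 0.0155 to 0.140. It was lost without control 1 (limma adjusted p = 0.140), without wh7 1 (0.0521), without wh7 2 (0.136), with no filter (0.0701), without the variance trend (0.0595) and with a crossed replicate block chosen after seeing the data (0.0615).

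pit (FBgn0266581; chromosome 3R, 22034298 to 22038925, plus strand) measured 71.4 and 69.7 FPKM in control ovaries and 54.9 and 70.1 FPKM in wh7 ovaries. wh7 2 stood between the controls and wh7 1 below them, with a change of -0.18 ± 0.134 (SE; 95% interval -0.53 to 0.17; limma adjusted p = 0.316). Fadd, an immune adaptor gene, lies inside pit on the same strand without shared exon bases and was at 18.2, 18.1, 16.5 and 18.3 FPKM across control 1, control 2, wh7 1 and wh7 2.

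Nlp (FBgn0016685; chromosome 3R, 30004785 to 30010352, plus strand) was the most highly expressed of the 10 genes in both genotypes. It measured 756 and 779 FPKM in control ovaries and 717 and 817 FPKM in wh7 ovaries. The wh7 values lay on either side of the controls, and the change was -0.005 ± 0.108 (SE; 95% interval -0.29 to 0.28; limma adjusted p = 0.977), with its direction reversed under median ratio scaling (0.102) and without control 2 (0.017) or wh7 1 (0.089). Its start overlaps the neighbouring nucleoplasmin gene CG7911, named Nph in current annotation, which lies on the other strand and shares 77 exon bases with Nlp. CG7911 measured 629 and 675 FPKM in control ovaries and 503 and 642 FPKM in wh7 ovaries (limma adjusted p = 0.321). mod, which encodes the nucleolar protein Modulo, a binding partner of Nlp, measured 441 and 456 FPKM in control ovaries and 322 and 436 FPKM in wh7 ovaries (limma adjusted p = 0.253). The sources used here do not say whether counting was by strand, so reads of Nlp and CG7911, of Ns2 and CG14480 or of Nopp140 and P5CDh1 in the shared bases cannot be told apart.

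The order of the levels, which FPKM gives per length, differed between the genotypes. In controls it ran from Nlp (768 FPKM) through Nop60B (453), Non1 (387), Nopp140 (211), Fib (150), Tif-IA (99.9), Ns1 (72.9), pit (70.6) and Ns3 (54.3) to Ns2 (53.3). The library ranges of neighbours in that order did not overlap, except those of Ns1 and pit, and of Ns3 and Ns2. In wh7, Non1 (533 FPKM) stood above Nop60B (297), Fib (190) above Nopp140 (170), and Ns2 (65.5) above pit (62.5) and Ns3 (44.5). There the ranges of Fib and Nopp140, of Tif-IA and Ns1, of Ns1 and Ns2, and of Ns2 and pit overlapped. The 10 genes summed to 2270 and 2369 FPKM in the controls and to 2112 and 2460 FPKM in wh7, so the sums of the 2 genotypes overlapped.

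The 2 wh7 libraries differed in the same direction for all 10 genes. Each was lower in wh7 1 than in wh7 2, where 51.9% of all tested genes were, and the median difference was -0.215 on the log2 scale beside -0.009 for all tested genes. Between the controls 6 of the 10 genes were lower in control 1, with a median difference of -0.022. The other genes of the nucleolar lists showed the same direction in 65 of 66 cases, with a median difference of -0.306 between the wh7 libraries and of -0.050 between the controls. Among tested genes at or above the level of the lowest of the 10, 49.1% were lower in wh7 1, with a median difference of 0.005. This pattern was noticed after the values were seen, and genes within a library are not independent. Of the marker lists, muscle sheath markers were lower in wh7 1 in 13 of 13 genes (median -0.731), germline markers in 6 of 11 (median -0.006), hemocyte markers in 3 of 6 (median -0.385) and follicle cell markers in 5 of 7 (median -0.269). Between the controls, muscle markers were lower in control 1 in 12 of 13 genes (median -0.339), hemocyte markers in 4 of 6 (median -0.270), follicle cell markers in 7 of 7 (median -0.533) and germline markers in 6 of 11 (median -0.019). The part of cell composition in the difference between the wh7 libraries was not tested.

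**Figure D4:**
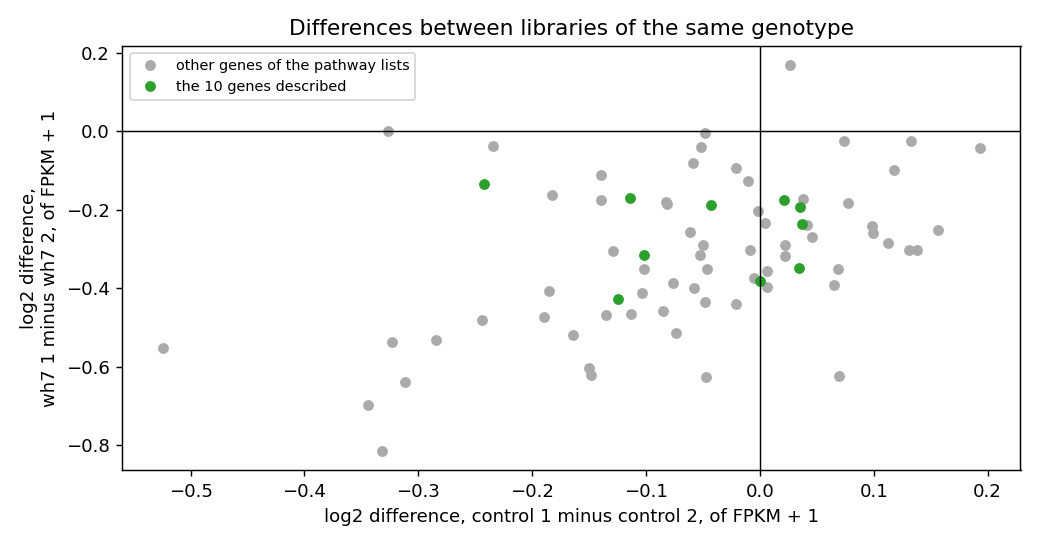
Difference between the 2 control libraries (x axis) and between the 2 wh7 libraries (y axis) on the log2(FPKM + 1) scale, with green points for the 10 genes and grey points for the other 66 nucleolar genes. All green points and 65 of 66 grey points lie below 0 on the y axis, while on the x axis 6 of the 10 genes lie below 0.

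The wider pathway was examined through 6 lists, from which the 10 genes were left out. Of 66 other nucleolar and ribosome biogenesis genes, all tested, 2 rose, 8 fell and 56 were not called, so 15.2% were called where 39.7% of all tested genes were. Their changes ran from -0.59 to 0.65 with a median of -0.09, their median size was 0.23 beside 0.35 for all tested genes, and the median SE was 0.134 beside 0.128. In 48.5% of them the genotypes did not overlap, beside 77.0% of all tested genes. Among the 2649 tested genes at or above the level of the lowest of the 10, 34.1% were called. There the median size was 0.25 and the median SE was 0.0962. The 66 genes reach lower levels than that set, with a lowest mean of 14.4 FPKM. Both the number called among the 66 and its balance depended on single libraries. Without control 1, 0 were called (8.95% of all genes), and without control 2, 2 higher and 0 lower (18.4% of all genes). Without wh7 1 the balance turned to 10 higher and 2 lower, or 18.2% beside 30.4% of all genes, and 4 of the 10 calls were kept. Without wh7 2 there were 1 higher and 8 lower, or 13.6% beside 15.8% of all genes. Median ratio scaling gave 3 higher and 2 lower, or 7.58% beside 33.8% of all genes. Quantile normalization gave 3 and 3, or 9.09% beside 29.5%. No filter and no variance trend each gave 2 and 2, or 6.06% beside 21.5% and 33.3% of all genes.

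Of 10 other genes of RNA polymerase I and its factors, 0 rose and 2 fell, where 21.2% and 18.4% of all tested genes did. The other 8 were not called. The balance was 2 higher (l(2)37Cg and dm) and 1 lower without wh7 1, and 1 higher (udd) and 1 lower under quantile normalization or median ratio scaling. TAF1B, which encodes a subunit of the polymerase I promoter factor, measured 35.5 and 32.3 FPKM in control ovaries and 22.0 and 22.4 FPKM in wh7 ovaries, a 1.53-fold fall (limma adjusted p = 0.0162). CG13773, annotated as polymerase I subunit Polr1F, fell 1.41-fold, with 65.5 and 68.4 FPKM in control ovaries and 43.3 and 51.9 FPKM in wh7 ovaries (limma adjusted p = 0.0306). The genes of the 2 largest subunits, RpI1 and RpI135, were not called, with differences of -0.12 and 0.12 (limma adjusted p = 0.683 and 0.704). dm, which encodes the fly Myc protein, measured 92.1 and 97.0 FPKM in control ovaries and 102 and 146 FPKM in wh7 ovaries, without a call (limma adjusted p = 0.172). RpI1, RpI135 and dm, the snoRNP partners that were not called, and genes of any list named for a left-out library or a scaling were picked with their values already known.

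For the small subunit, 0 of 17 listed genes rose and 3 fell, where 21.2% and 18.4% of all tested genes did. The other 14 were not called, and the median change was -0.10. Only 1 was lower with no filter, no variance trend, quantile normalization or median ratio scaling. l(3)72Dn, the counterpart of yeast UTP4, measured 39.3 and 38.7 FPKM in control ovaries and 24.3 and 29.9 FPKM in wh7 ovaries (limma adjusted p = 0.0356). CG3071 fell 1.42-fold, with 58.3 and 55.2 FPKM in control ovaries and 37.5 and 42.7 FPKM in wh7 ovaries (limma adjusted p = 0.0232). RIOK1, a kinase gene of late small subunit maturation, was called lower at 36.1 ± 1.73 FPKM against 45.7 ± 2.70 FPKM (SD, n = 2; limma adjusted p = 0.0478), but it was called in only 3 of 14 alternative fits (limma adjusted p = 0.0469 to 0.243).

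For the large subunit, 1 of 19 other genes rose and 2 fell, where 21.2% and 18.4% of all tested genes did. The other 16 were not called. The balance turned to 4 higher (CG4364, CG6724, CG8939 and CG13185) and 0 lower without wh7 1. It was 1 higher and 0 lower with no filter, under quantile normalization or median ratio scaling, and without the variance trend. CG4364 measured 216 and 238 FPKM in control ovaries and 315 and 340 FPKM in wh7 ovaries, a 1.44-fold rise (limma adjusted p = 0.0162). CG7839, the fly Noc1, fell 1.37-fold to 50.3 ± 7.54 FPKM (SD, n = 2) at a limma adjusted p of 0.0433, and CG9246, the fly Noc2, fell 1.29-fold to 69.8 ± 8.18 FPKM (0.0478), a call that was lost in 10 of 14 alternative fits (limma adjusted p = 0.0387 to 0.185). Of 12 genes of the RNA exosome and rRNA trimming 1 rose and 0 fell. That gene was Rrp4, which encodes an RNA-binding subunit of the exosome, with 40.3 and 47.6 FPKM in control ovaries and 68.6 and 70.4 FPKM in wh7 ovaries (limma adjusted p = 0.0147). Of the other 2 genes in the list of nucleoplasmins and nucleolar binding partners, CG7911 and mod, 0 were called. The authors' deposited table marks TAF1B and Rrp4 as significant. The 10 calls in these lists were all lost without control 1, where their limma adjusted p ranged from 0.0743 to 0.243. Rrp4 was called in 13 of 14 alternative fits and TAF1B, CG3071 and CG4364 in 12, while CG13773, l(3)72Dn and CG7839 were called in 7 and hoip in 6.

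**Figure D5:**
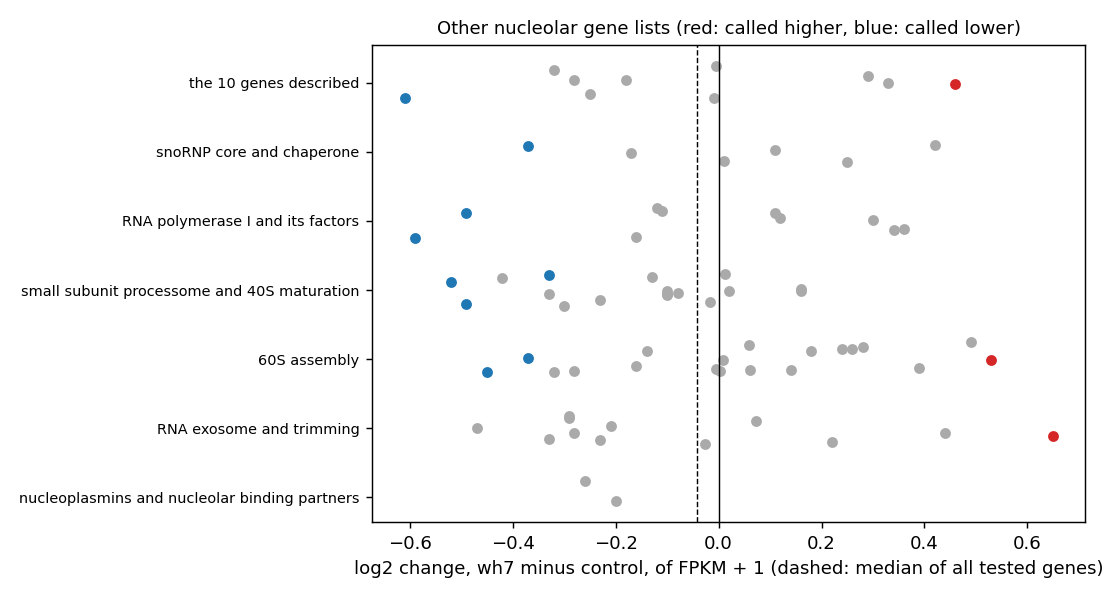
Change of each tested gene on the log2(FPKM + 1) scale, wh7 minus control, for the 10 genes and the 6 lists, with red for called higher, blue for called lower and grey for not called. Grey points prevail in each list, with 2 red and 8 blue points among the 66 other genes.

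Muscle sheath, hemocyte and follicle cell markers differed far more between the genotypes than the nucleolar genes did. Their median sizes of change were 3.8, 2.59 and 1.79, beside 0.29 for the 10 genes and 0.35 for all tested genes. For germline markers the median size was 0.22. Across all tested genes 21.2% were called higher and 18.4% lower. Muscle sheath markers rose in 13 of 13 genes, and their summed level was 117.9 to 154.7 FPKM in controls and 1461 to 2495 FPKM in wh7. Hemocyte markers rose in 5 of 6 tested genes, with sums of 37.8 to 56.7 and 237.5 to 330 FPKM, and NimC1 was listed at 0 in both controls. Follicle cell markers rose in 7 of 7 tested genes, with sums of 56.4 to 87.9 and 265 to 327 FPKM. Of 11 germline markers 2 rose (aub and bgcn), 3 fell (nos, BicD and egl) and 6 were not called, with sums of 1594 to 1600 FPKM in controls and 1404 to 1579 FPKM in wh7. The part of cell composition in the changes of Nop60B and Non1 was not tested.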

How the data were processed

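The 4 ovary libraries were made with a strand-specific kit and read from 1 end over 75 bp, per the labels' protocols. The submitters' processing notes name bcl2fastq 2.0 and Bowtie 0.12.2, and give 2 builds, BDGP6 and mm8, with no role. The authors deposited FPKM per library, in which 0.0001 stands for 0, per the file headers. Per the file headers, the authors also deposited FPKM by genotype, the ratio of the genotypes, the log2 of that ratio, and p-value and q-value columns. The sources used here name neither their quantifier nor their test. Read totals are not given, so no count model was used. The FPKM of 1 read in 1 kb, about 0.0488 to 0.0527, was estimated from genes with 1 annotated transcript.

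Groups were taken from the source names, and 0 per-library columns were left out. Genes that reached 1 FPKM in 2 or more libraries were fitted with limma 3.58.1 in R 4.3.3 on log2(FPKM + 1), a scale that understates changes of low genes, with a mean-variance trend and Benjamini-Hochberg adjustment over 8580 genes at a threshold of 0.05. Fold changes are ratios of mean FPKM, and log2 changes are differences on that scale. The fit was tested on simulated data. Coordinates are 1-based in BDGP6, whose annotation held 17171 of the 17475 gene identifiers (98.3%), and 4 of 116 list symbols were matched through its current names.

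The genes and lists were chosen with earlier results of these data known. Named list genes were up to 3 called genes with the largest change, or the 2 with the highest level where none was called. Wuho was named as the check of the mutation. Its neighbour Top3beta, also in that rule, was at 43.7 and 45.0 FPKM in controls and at 8.79 and 9.01 FPKM in wh7. Top3beta was thus called lower as well, at 20.1% of its control mean (limma adjusted p = 0.00281). The alternatives were 2 pseudocounts, 2 filters, 3 scalings, no variance trend, leaving out each library, a replicate block and a crossed block. Sequences were not used here.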

Additional observations from a re-analysis of the deposited data

How the results depend on the processing

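Over all tested genes 1820 were called higher and 1583 lower. The higher calls numbered 1087 with a filter of 5 FPKM and 1167 after quantile normalization, and 672 to 1127 when 1 library was left out. The lower calls numbered 967 with no filter, 840 after median ratio scaling and 932 after rescaling to a fixed sum, and 87 to 1330 when 1 library was left out. Of all calls 53.5% were higher. The share was 41.4% with a filter of 5 FPKM, 46.2% after quantile normalization, 65.3% after rescaling, 67.6% with no filter, 71.1% after median ratio scaling and 43.7% (without wh7 1) to 88.6% (without control 1) when 1 library was left out. Median ratio scaling shifts the median change over all genes by 0.102. Of the 10 nucleolar genes 1 was called higher, but 0 with no filter, without the variance trend or with the crossed block, 2 after median ratio scaling, and 0 to 2 when 1 library was left out. Called lower was 1 gene, but 2 with the replicate block and 0 to 2 when 1 library was left out. The cause was not tested. The median of the 10 genes was -0.096 and ranged from -0.251 (without wh7 2) to 0.039 (without wh7 1); median ratio scaling gave 0.009. The direction of Ns1 was reversed after quantile normalization (0.080) and median ratio scaling (0.096), and its changes ran from -0.166 to 0.148 when 1 library was left out, above 0 without control 2 or wh7 1. That of Nlp was reversed after median ratio scaling (0.102) and its changes ran from -0.099 to 0.089 when 1 library was left out, above 0 without control 2 or wh7 1. The other 8 genes kept their direction in all 14 alternatives.

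The other nucleolar lists gave these higher and lower calls. The snoRNP list had 0 and 1, but 0 lower with no filter, no variance trend, median ratio scaling or the crossed block, and 0 to 2 higher and 0 lower when 1 library was left out. The polymerase I list had 0 and 2. It had 1 higher with a pseudocount of 0.1, a filter of 5 FPKM, quantile normalization or median ratio scaling, and 1 lower with these scalings, no filter or no variance trend. When 1 library was left out it had 0 to 2 higher and 0 to 2 lower. The small subunit list had 0 and 3, but 1 lower with no filter, no variance trend, quantile normalization or median ratio scaling, and 0 to 3 lower when 1 library was left out. The large subunit list had 1 and 2. It had 2 higher with the replicate block, 0 lower with no filter, no variance trend, quantile normalization or median ratio scaling, and 1 lower with a filter of 5 FPKM, rescaling or the crossed block. When 1 library was left out it had 0 to 4 higher and 0 to 2 lower. The exosome list had 1 and 0, and 0 to 2 higher and 0 to 1 lower when 1 library was left out.

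The replicate numbers are only numbers. Differences between libraries 1 and 2 correlated at r = -0.165 between genotypes over 8580 genes, so a crossed pairing was added after seeing the data, with 2729 calls. The replicate block gave 3624 calls against 3403, and among the 10 genes it added Tif-IA. Without 1 library a group has a lone sample, which is assumed to vary like the other group. FPKM of genes that share exon bases with a neighbour are limited by unknown counting rules.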

Other observations

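Of the 147 ribosomal RNA entries of the table, 5 passed the filter and 0 of these were called; they were looked at after their values were seen. 28SrRNA:CR45844 measured 6.67 and 8.66 FPKM in control ovaries and 14.7 and 51.8 FPKM in wh7 ovaries (limma adjusted p = 0.0732), while the authors' deposited table gives a q of 0.00087. CR40640, a more abundant rRNA entry, measured 35.0 and 38.8 FPKM in control ovaries and 60.7 and 198 FPKM in wh7 ovaries (limma adjusted p = 0.0841). Both entries were higher in both wh7 libraries, with wh7 2 far above wh7 1. The mitochondrial mt:lrRNA lay the other way without overlap, with 28300 and 30500 FPKM in control ovaries and 13100 and 15900 FPKM in wh7 ovaries (limma adjusted p = 0.110). The groups overlapped for mt:srRNA (95.1 and 10.3 against 21.9 and 21.0 FPKM; limma adjusted p = 0.685) and for CR41544 (1.05 and 1.62 against 1.03 and 5.22 FPKM; 0.415). The authors' deposited table also gives a q of 0.00087 for CR40640 and for mt:srRNA, and marks neither mt:lrRNA nor CR41544 as significant. Of the precursor entries, pre-rRNA:CR45846 and pre-rRNA:CR45847 were listed at 0 in all 4 libraries, and pre-rRNA:CR45845 was at 0.00686 FPKM in control 2, at 0.0136 FPKM in wh7 2 and listed at 0 in the others. The sources used here do not say how far rRNA was removed before sequencing, so these levels are no measure of rRNA synthesis.

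The 2 enzymes that modify rRNA moved apart in ratio while staying among the more highly expressed genes. Nop60B was at the 97.3rd percentile of tested genes by mean level and Fib at the 93.5th. Within the C/D particle, the ratio of hoip to Fib was 2.54 and 2.56 in controls and 1.72 and 1.44 in wh7, and that of Nop56 to Fib was 0.894 and 0.910 in controls and 0.597 and 0.683 in wh7. These ratios were chosen after their values were seen and were not tested.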
